A study of Rattus norvegicus with 23 samples.

Results

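Rats given acetaminophen (APAP) at a dose that left no lesion under the microscope were compared with rats given only the corn oil it was dosed in. The comparison rests on 6 of the 23 liver arrays of the series: 3 from APAP rats (1000 mg/kg/day in corn oil) and 3 from corn oil rats (2 ml/kg), chosen by their titles. All were male Sprague Dawley rats, 6 to 8 weeks old at the start, gavaged once a day for 5 days and necropsied 24 h after the last dose, and each array holds total RNA of the left lateral lobe of 1 rat. For comparison, effects were also read from 3 diclofenac (DCLF, 10 mg/kg) rats against 2 water rats (10 ml/kg) of the same study. From a separate study came 3 α-naphthylisothiocyanate (ANIT, 100 mg/kg) rats, read against 3 corn oil rats (5 ml/kg). From yet another study came 3 methylenedianiline (MDA, 100 mg/kg) rats, read against 3 rats given 35% ethanol (2 ml/kg). ANIT and MDA injure the bile ducts, and DCLF, like APAP, gave no lesion at this dose. A rat at this dose models exposure without visible injury, not APAP overdose, and the rat is known to be less sensitive to APAP than the mouse.

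In these livers a small set of genes for conjugation, export and antioxidant defence was higher after APAP, led by the glutathione S-transferase Gsta3 (20.4-fold), the efflux pump Abcc3 (7.31-fold) and the aldehyde reductase Akr7a3 (5.99-fold). So were 3 enzymes of serine and asparagine synthesis (Asns 6.06-fold, Phgdh 5.83-fold, Psat1 4.32-fold). Fewer genes fell, among them the β-globin Hbb (6.33-fold lower), the steroid hydroxylase Cyp17a1 (5.60-fold lower) and the collagen cross-linker Lox (5.19-fold lower). None of the 36 measured replication and mitosis genes, 23 acute phase genes or 23 immediate early genes passed the test. Over all genes 0.239% were called higher and 0.0844% lower, so that lists of this size would mostly hold none.

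APAP is cleared in liver mainly by joining it to glucuronic acid or sulfate. A share is oxidised by P450 enzymes, above all CYP2E1, to a reactive quinone imine that is captured by glutathione. The transcription factor NRF2, held in check by KEAP1 until its cysteines are modified, binds antioxidant response elements (AREs) and switches on genes for glutathione synthesis, glutathione S-transferases, quinone reduction, NADPH supply and efflux pumps. ATF4, made when translation initiation is restrained, drives genes for amino acid synthesis and import.

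Values are log2 RMA expression levels, so that a difference of 1 is a doubling. A gene was called where limma's moderated test of the 6 arrays gave a Benjamini-Hochberg adjusted p under 0.05 over all 31042 probe sets and the fold change was above 1.5, and each of 14217 genes was read from 1 probe set. By this rule 65 probe sets were called (0.209% of all tested, with 43 higher and 22 lower), and among genes 34 were higher (0.239% of all tested) and 12 lower (0.0844% of all tested). At an unadjusted p under 0.05 there were 3183 probe sets. The groups were apart in all 65 called probe sets and in 4971 of all 31042, so that a lack of overlap alone sets no gene apart. Array medians lay between 8.95 and 9.02, and pairs of arrays within a group correlated at 0.9912 to 0.9949. The 3 rats a group set how precise any value can be. The p-values weigh each change against the spread between these rats, which limma draws, for each probe set, towards that typical of all probe sets. The tissue label held: hepatocyte markers such as Alb (15.97, 15.98 and 15.95 after APAP, against 15.98, 15.99 and 15.97 after corn oil) and Ttr were near the highest value in the table, 15.99, where differences can be compressed. Corn oil itself was not told apart from water in this study, with 0 probe sets called by limma and 2107 at an unadjusted p under 0.05.

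The glutathione S-transferases, which join glutathione to reactive compounds, held the largest rise. Gsta3, an alpha-class enzyme, was at 12.32, 12.01 and 12.30 in APAP livers, against 8.06, 7.45 and 8.07 in corn oil livers (log2 levels). The groups did not overlap and were 3.94 apart at their nearest, a change of 4.35 ± 0.173 (SE, adjusted p = 7.95e-05 by limma). Gstp1, the pi-class form that in rats marks preneoplastic liver foci, was at 13.47, 12.42 and 12.65 in APAP livers, against 11.04, 10.79 and 11.14 in corn oil livers. The first APAP rat stood above the other 2, and the fold was 3.62 (adjusted p = 0.041); the call was lost in 5 of 6 fits that left out 1 array, with an adjusted p of up to 0.162. Mgst2, a membrane-bound form, and Gstm1, a mu-class form, were 1.97-fold and 1.78-fold higher. Of 25 measured members 4 rose and none fell, and the list's median change was 0.22, against 0.018 over all genes. Gsta1, among the members that did not pass, changed by 0.26 (adjusted p = 0.44). The Gsta3 probe set may also read close paralogs such as Gsta2 and Gsta5, which had no probe set of their own here.

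RefSeq promoters (250 bases before to 50 after the gene start, GRCr8) were found for 38 of the 46 called genes, and were searched on both strands for the ARE core TGACNNNGC. It occurred in 8 of the 30 promoters of genes that rose (26.7%), in 0 of 8 of genes that fell, and in 12.1% of all 33469 promoters. The last share was not limited to the 14217 genes measured here, and the shares were not compared by a test. The windows of Gsta3 (chr9:31154739-31155038, plus strand), Pir (chrX:33851000-33851299, minus strand), Gstp1 (chr1:210769656-210769955, minus strand) and Gclm (chr2:213031885-213032184, plus strand) are shown because their genes rose and carry the core. Each is written 5′ to 3′ in the direction of the gene, and capitals mark the core or its reverse complement.
Gsta3: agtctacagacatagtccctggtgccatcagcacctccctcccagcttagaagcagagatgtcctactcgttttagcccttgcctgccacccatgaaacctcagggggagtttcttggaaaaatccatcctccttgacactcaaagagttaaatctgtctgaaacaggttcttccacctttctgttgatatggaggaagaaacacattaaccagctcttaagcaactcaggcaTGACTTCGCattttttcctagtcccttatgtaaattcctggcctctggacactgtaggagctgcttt
Pir: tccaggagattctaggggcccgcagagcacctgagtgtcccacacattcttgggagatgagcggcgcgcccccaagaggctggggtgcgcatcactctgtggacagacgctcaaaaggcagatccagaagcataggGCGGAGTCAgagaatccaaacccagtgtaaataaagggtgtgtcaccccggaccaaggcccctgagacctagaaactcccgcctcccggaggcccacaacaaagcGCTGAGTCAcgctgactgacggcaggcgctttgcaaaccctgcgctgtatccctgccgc
Gstp1: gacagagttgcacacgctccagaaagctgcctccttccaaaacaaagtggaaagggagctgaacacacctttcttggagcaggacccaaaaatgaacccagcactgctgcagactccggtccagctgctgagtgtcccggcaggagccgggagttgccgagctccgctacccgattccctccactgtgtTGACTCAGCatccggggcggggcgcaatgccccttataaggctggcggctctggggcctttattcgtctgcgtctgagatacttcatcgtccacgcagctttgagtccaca
Gclm: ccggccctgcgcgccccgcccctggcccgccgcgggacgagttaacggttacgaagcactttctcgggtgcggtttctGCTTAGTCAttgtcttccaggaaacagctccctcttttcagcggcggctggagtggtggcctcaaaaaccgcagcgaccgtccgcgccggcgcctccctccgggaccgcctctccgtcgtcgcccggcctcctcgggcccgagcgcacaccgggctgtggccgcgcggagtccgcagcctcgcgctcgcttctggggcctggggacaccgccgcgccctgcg
In Gsta3 the core begins 17 bases before the gene start and in Gstp1 61 bases before it. Pir has 2, at 114 and 9 bases before the start, both on the opposite strand, and that of Gclm lies 172 bases before it. The other 4 promoters with a match were those of Me1, Ugdh, Reep6 and Phgdh, the last at 20 bases past the gene start. In Gstp1 and Me1, and at 1 of the matches in Pir, the letters read TGACTCAGC, which also hold the AP-1 motif TGACTCA. A match is a description of letters, not a site shown to be bound.

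**Figure D1:**
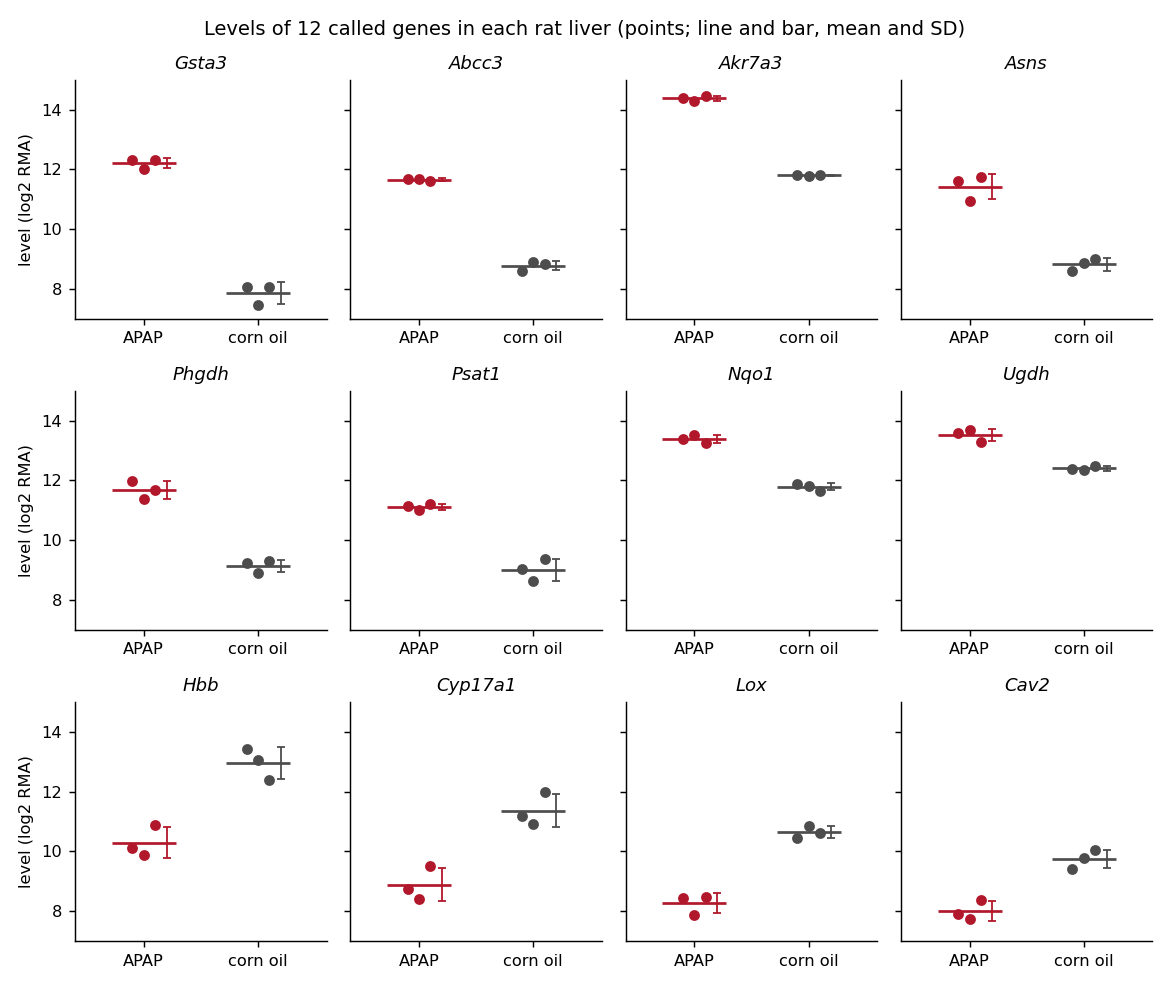
Log2 RMA level (vertical axis) of 12 called genes in each of the 3 APAP rats (red, left) and 3 corn oil rats (grey, right); lines are means and bars SD. In each panel the groups do not overlap, with the widest gap, 3.94, in Gsta3.

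The first step of glutathione synthesis is run by a ligase of 2 subunits, Gclc and Gclm, and each was called higher. Gclc, the catalytic subunit, was at 12.69, 12.57 and 12.67 in APAP livers, against 11.97, 11.63 and 11.46 in corn oil livers (1.94-fold, adjusted p = 0.0387). Its second probe set did not pass (change 0.58, adjusted p = 0.254), and the call was lost in 4 of 6 fits without 1 array and with the mean of its probe sets. Gclm, the modifier subunit, was at 12.70, 12.89 and 12.62 in APAP livers, against 11.88, 11.64 and 11.63 in corn oil livers (2.03-fold, adjusted p = 0.0113), a call lost in 3 of 6 such fits. Gsr, which regenerates reduced glutathione, was 1.76-fold higher (adjusted p = 0.0446), and its call was lost whichever array was left out. These were the 3 of 25 measured genes of glutathione synthesis and recycling that passed, and the list's median change was 0.10. Slc7a11, which imports cystine, was at 8.32, 8.42 and 8.18 in APAP livers, against 8.10, 8.32 and 8.17 in corn oil livers, so that the groups overlapped (change 0.11 ± 0.0932 (SE), adjusted p = 0.719).

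The reductases Akr7a3 and Nqo1 were also called higher. Akr7a3, which reduces aflatoxin dialdehyde, was at 14.38, 14.30 and 14.47 in APAP livers, against 11.80, 11.79 and 11.82 in corn oil livers. It had the smallest adjusted p of the comparison, 1.53e-05, and was the 1 gene called under every alternative run. Nqo1, the quinone reductase that is a classic NRF2 target, was at 13.39, 13.52 and 13.27 in APAP livers, against 11.89, 11.83 and 11.66 in corn oil livers (3.03-fold, adjusted p = 0.00105). Aldh1a1, which oxidises retinal and other aldehydes, was 2.27-fold higher (adjusted p = 0.0456), and the call was lost in 4 of 6 fits without 1 array. These 3 were the called members among 35 measured genes of quinone, carbonyl and epoxide metabolism, of which 25 changed upwards and 10 downwards (median 0.10). Ephx1, microsomal epoxide hydrolase, was named after its values were seen: at 15.56, 15.49 and 14.36 in APAP livers, against 13.42, 13.17 and 13.01 in corn oil livers, it did not overlap between groups, but with 1 APAP rat far below the others it missed the threshold (change 1.94, adjusted p = 0.0644).

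NADPH pays for these reductions. Me1, malic enzyme, was at 12.11, 11.86 and 12.09 in APAP livers, against 11.16, 10.81 and 11.01 in corn oil livers (2.04-fold, adjusted p = 0.0173), although a second Me1 probe set with a change of 1.36 did not pass (adjusted p = 0.153). Tkt, transketolase of the pentose phosphate pathway, was 1.85-fold higher (adjusted p = 0.0104). The other 13 of 15 measured NADPH supply genes did not pass, among them Pgd (change 0.41) and Taldo1 (0.22). Pir, pirin, a nuclear iron protein and known NRF2 target, was at 11.32, 11.64 and 11.47 in APAP livers, against 9.89, 9.48 and 9.24 in corn oil livers (3.84-fold, adjusted p = 0.00399).

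The regulators of the pathway and several of its other targets were not called. Nfe2l2, which encodes NRF2, was at 11.51, 11.86 and 11.47 in APAP livers, against 11.64, 11.56 and 11.95 in corn oil livers, with overlap and a change of -0.10 (adjusted p = 0.841). Keap1 was at 11.20, 11.17 and 11.18 in APAP livers, against 10.92, 10.83 and 11.03 in corn oil livers (change 0.26, adjusted p = 0.316). None of 13 measured NRF2 pathway regulators and none of 23 thioredoxin, peroxiredoxin and superoxide defence genes passed. Txnrd1, thioredoxin reductase, was at 12.59, 13.05 and 12.41 in APAP livers, against 11.90, 11.77 and 12.02 in corn oil livers, without overlap (change 0.79, adjusted p = 0.141). It was called when all 11 arrays of the study, or all 23, shared the estimate of the spread, and with corn oil and water rats as controls. Hmox1, haem oxygenase, named after its values were seen, changed by 0.93 (adjusted p = 0.211).

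Of the conjugation routes, glucuronidation held called genes and sulfation held none. The difference between the routes was not tested. At the shares over all genes (0.239% called higher, 0.0844% lower) a list of 18 would seldom hold a call. Ugdh, which makes the UDP-glucuronic acid that all glucuronidation uses, was at 13.58, 13.69 and 13.29 in APAP livers, against 12.39, 12.34 and 12.49 in corn oil livers (2.17-fold, adjusted p = 0.0104). Ugt2b1, a glucuronosyltransferase, was at 12.80, 13.19 and 13.15 in APAP livers, against 11.73, 11.69 and 11.60 in corn oil livers (2.59-fold, adjusted p = 0.0036). Ugt2b34l1, another family member that no list held, was 2.12-fold higher (adjusted p = 0.0173). Ugp2, which makes the UDP-glucose that Ugdh oxidises, was at 13.91, 13.85 and 13.70 in APAP livers, against 13.13, 13.01 and 13.31 in corn oil livers. Those groups did not overlap, and its change of 0.67 narrowly missed the threshold (adjusted p = 0.0594). Over the 13 measured genes of the glucuronidation list 2 rose, none fell and the median change was 0.28. The 2B genes are close paralogs whose probes may read each other, and the UGT1A genes were not measured apart. Of 18 measured sulfotransferase and sulfate donor genes none passed (median 0.05), with Papss1, which makes the sulfate donor, at a change of 0.42 (adjusted p = 0.14).

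Cryl1, which acts on gulonate in the pathway that breaks down glucuronic acid, was at 12.42, 12.30 and 12.46 in APAP livers, against 10.80, 10.61 and 10.61 in corn oil livers (3.29-fold, adjusted p = 0.000348). The P450 genes gave no call among 31 measured (median -0.03), and their difference from the conjugation genes was not tested. Cyp2e1 was at 15.72, 15.68 and 15.72 in APAP livers, against 15.72, 15.70 and 15.69 in corn oil livers, overlapping groups close to the top of the scale. Cyp1a2, which also oxidises APAP, was at 12.31, 12.09 and 12.23 in APAP livers, against 13.20, 13.04 and 12.67 in corn oil livers. It did not overlap and changed by -0.76 (adjusted p = 0.0966). Cyp3a2 was at 12.97, 13.02 and 12.66 in APAP livers, against 14.62, 14.48 and 12.86 in corn oil livers, where the third rat overlapped with the APAP rats (change -1.10, adjusted p = 0.422).

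The efflux pumps Abcc3 and Abcc4, which face the blood side of the hepatocyte, were called higher. Abcc3, the pump that carries glucuronides including that of APAP into blood, was at 11.69, 11.66 and 11.60 in APAP livers, against 8.60, 8.91 and 8.82 in corn oil livers. The groups were 2.69 apart at their nearest (change 2.87 ± 0.0932 (SE), adjusted p = 2.41e-05). Abcc4, which exports glucuronides, sulfates and bile acids, was at 10, 9.86 and 9.79 in APAP livers, against 8.46, 8.23 and 8.08 in corn oil livers (3.08-fold, adjusted p = 0.00156). Abcc2, its counterpart on the bile side, changed by 0.14 (adjusted p = 0.68), and 12 of the 14 measured pumps did not pass (median 0.05). The difference between pumps was not tested. Slc17a3, an organic anion and urate transporter, was 2.66-fold higher (adjusted p = 0.0207). Targets of the receptors CAR and PXR divided: 4 of 22 rose (Abcc3, Ugt2b1, Aldh1a1 and Gstm1, all described above), while Cyp3a23-3a1, at a change of 0.01, was not called.

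Genes of serine and asparagine synthesis formed the other block of large rises. Phgdh, the entry enzyme of serine synthesis, was at 11.99, 11.37 and 11.68 in APAP livers, against 9.22, 8.90 and 9.30 in corn oil livers (5.83-fold, adjusted p = 0.00156). Psat1, the next enzyme, was at 11.15, 11.01 and 11.21 in APAP livers, against 9.05, 8.62 and 9.36 in corn oil livers (4.32-fold, adjusted p = 0.00346). Asns, asparagine synthetase, was at 11.60, 10.93 and 11.74 in APAP livers, against 8.59, 8.87 and 9.01 in corn oil livers (6.06-fold, adjusted p = 0.00346). In each the lowest APAP rat lay at least 1.64 above the highest corn oil rat. Ddit4, which restrains the growth kinase mTORC1, was 2.19-fold higher (adjusted p = 0.0263), a call lost in 5 of 6 fits without 1 array.

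These 4 were the called members of the 25 measured integrated stress response genes, of which 21 changed upwards and 4 downwards (median 0.31). Atf4 was at 12.50, 12.37 and 12.21 in APAP livers, against 11.87, 11.79 and 11.98 in corn oil livers, without overlap (change 0.48, adjusted p = 0.131). Ddit3, the stress factor CHOP, overlapped between groups (change 0.06, adjusted p = 0.867), and so did Atf3 (-0.06, adjusted p = 0.956). Trib3, named after its values were seen, changed by 1.30, but 1 corn oil rat at 11.06 stood well above the other 2 (adjusted p = 0.159). Of 19 cytoplasmic aminoacyl-tRNA synthetases, which load amino acids onto tRNA, 18 changed upwards, none passed and the median was 0.24. Of 21 chaperones of the endoplasmic reticulum 18 changed upwards, none passed and the median was 0.26, with Hspa5 at 0.41 (adjusted p = 0.37). Over all genes 55.4% changed upwards. The letters TGATGNAA, the core of the element bound by ATF4, were in the promoter of 1 of 30 genes that rose (Pck2) and in 3.98% of all promoters.

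**Figure D2:**
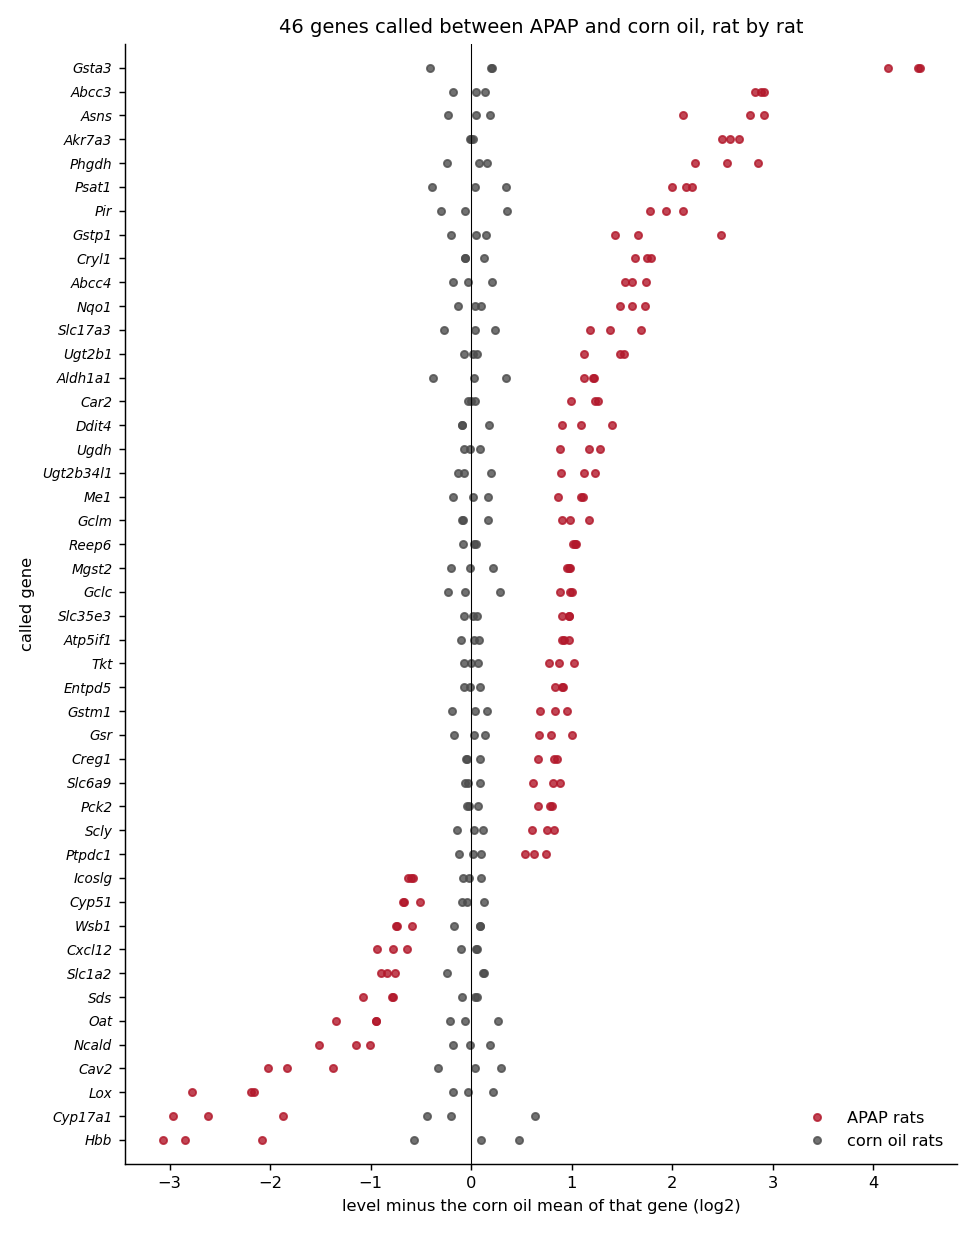
Level of each of the 46 called genes (rows, by size of change) in every rat, as the difference from that gene's corn oil mean on the log2 scale; red points are APAP rats and grey points corn oil rats. The points of the groups are apart in every row, as the genes were chosen for their separation, and the 34 higher genes stand above the 12 lower ones.

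Further rises lay outside these groups. Car2, carbonic anhydrase 2, was at 10.61, 10.58 and 10.35 in APAP livers, against 9.35, 9.39 and 9.32 in corn oil livers (2.23-fold, adjusted p = 0.00244), and its second probe set passed too. Reep6, which shapes membranes of the endoplasmic reticulum, was at 13.16, 13.14 and 13.17 in APAP livers, against 12.16, 12.18 and 12.05 in corn oil livers (2.03-fold, adjusted p = 0.00156). A second Reep6 probe set with a change of 0.88 did not pass (adjusted p = 0.15 by limma). The remaining 8 called rises, named after their values were seen, were 1.55-fold to 1.93-fold. They were Slc35e3, Atp5if1 (the inhibitor of ATP synthase), Entpd5 (an endoplasmic reticulum UDPase), Creg1, Slc6a9 (a glycine transporter), Pck2 (the mitochondrial form of the gluconeogenic carboxykinase), Scly (selenocysteine lyase) and Ptpdc1. At least 1 other probe set of each of Slc35e3, Atp5if1, Entpd5, Slc6a9 and Pck2 did not pass. In all, 27 of the 46 called genes were in at least 1 of 48 lists and 19 in none, and 7 of the called probe sets have no gene name.

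Globin transcripts were the largest fall. Hbb was at 10.11, 9.89 and 10.88 in APAP livers, against 13.43, 13.05 and 12.39 in corn oil livers. The groups were 1.51 apart at their nearest, and the change was -2.66 ± 0.31 (SE, adjusted p = 0.0227). It was called in 2 of 6 fits without 1 array, with a change between -2.96 and -2.42 and an adjusted p of up to 0.119. The 8 vehicle arrays of the other groups had 13.22 to 14.23, and no other array of the series was under 12.37. A probe set shared by Hbbl1 and Hbb-bs fell by 2.62 and one shared by Hba-a2 and Hba-a1 fell by 1.77, but probes of these genes read each other and are not independent.

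Alas2, the erythroid enzyme that starts haem synthesis, was at 8.58, 7.97 and 8.54 in APAP livers, against 10.45, 9.92 and 9.55 in corn oil livers, without overlap (change -1.61, adjusted p = 0.0594). Other red cell markers were not called: Slc4a1, the anion exchanger of the red cell membrane, changed by 0.22 and Epb42 by -0.02. Of 13 measured erythroid markers 1 fell, 6 changed upwards and 7 downwards, with a median of -0.02. Their summed linear level was 9090 to 10300 in APAP livers, against 14800 to 22900 in corn oil livers. That sum includes Hbb, whose fall lowers it by itself, and the sum without Hbb was not taken. In whole liver, fewer red cells and less globin RNA per cell cannot be told apart, and the part of blood left in the tissue was not tested.

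Lox, which cross-links collagen, was at 8.45, 7.87 and 8.48 in APAP livers, against 10.46, 10.86 and 10.61 in corn oil livers (change -2.38 ± 0.174 (SE), adjusted p = 0.00229). Its second probe set fell by 2.45, and the call held in every fit without 1 array. It was lost when the 2 water rats, at 8.53 and 10.78, joined the controls, and the cause was not tested. Lox was the 1 called gene among 24 markers of stellate cells and matrix. Of these 17 changed downwards and the median was -0.15, with Col1a1 at -0.48 (adjusted p = 0.58) and Acta2 at 0.09. The list's summed linear level was 34600 to 36500 in APAP livers, against 39000 to 45000 in corn oil livers, and its part in the fall of Lox was not tested.

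Cav2, a caveolin of endothelial and other cells, was at 7.91, 7.72 and 8.37 in APAP livers, against 9.41, 9.78 and 10.04 in corn oil livers (3.34-fold lower, adjusted p = 0.0211). In Cav2, 2 further probe sets passed with it, and another, with a change of -0.54, did not pass. None of 14 endothelial markers passed, and their summed linear level overlapped between groups (13500 to 21900 in APAP livers, against 14200 to 21400 in corn oil livers). Cxcl12, a chemokine made by stromal and endothelial cells, was 1.72-fold lower (adjusted p = 0.0263), but its other probe sets, at -0.55 and -1.16, did not pass. Ncald, a neuronal calcium sensor, was 2.33-fold lower (adjusted p = 0.0233), with a second probe set at -0.42 that did not pass. Wsb1, part of a ubiquitin ligase, was 1.62-fold lower (adjusted p = 0.0446) and Icoslg, a ligand that stimulates T cells, 1.52-fold lower (adjusted p = 0.0264), with a second probe set at -0.28 that did not pass. The calls of Cxcl12, Wsb1 and Icoslg were lost whichever array was left out. That of Ncald was lost in 4 of 6 such fits and that of Cav2 in 3 of 6.

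Cyp17a1, the 17α-hydroxylase of steroid synthesis was at 8.75, 8.40 and 9.5 in APAP livers, against 11.17, 10.93 and 12 in corn oil livers. The groups were 1.43 apart and the change was -2.49 ± 0.332 (SE, adjusted p = 0.041), with the call lost in 4 of 6 fits without 1 array (adjusted p up to 0.169). It was the 1 called gene of the 13 measured genes higher in female rat liver. None of the 12 measured genes higher in males passed, with Cyp2c11 at a change of -0.49 (adjusted p = 0.44).

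Oat, Slc1a2 and Sds, which handle amino acids, were lower. Oat, ornithine aminotransferase of the hepatocytes around the central vein, was at 11.18, 11.58 and 11.58 in APAP livers, against 12.79, 12.32 and 12.47 in corn oil livers (2.12-fold lower, adjusted p = 0.0456). Slc1a2, the glutamate carrier of the same cells, was at 7.74, 7.68 and 7.82 in APAP livers, against 8.69, 8.70 and 8.33 in corn oil livers (1.77-fold lower, adjusted p = 0.0441), although its second probe set changed by 0.07. Glul, glutamine synthetase, which marks the innermost ring of those cells, was at 11.24, 10.91 and 11.61 in APAP livers, against 12.24, 12.35 and 12.03 in corn oil livers. Its groups did not overlap, but its representative probe set missed the threshold (change -0.95, adjusted p = 0.102) while another, with a change of -0.94, passed (adjusted p = 0.0145).

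Of 14 measured pericentral markers 2 fell, 10 changed downwards and the median was -0.60, against 0.018 over all genes. The list was mixed, with Cyp2e1 at 0.00 and Cyp1a2 at -0.76. Their summed linear level was 98800 to 101000 in APAP livers, against 108000 to 120000 in corn oil livers. Sds, the serine dehydratase of the hepatocytes around the portal vein, was at 10.54, 10.84 and 10.83 in APAP livers, against 11.67, 11.53 and 11.65 in corn oil livers (1.84-fold lower, adjusted p = 0.0193). It was the 1 called gene of 15 periportal markers, whose median was -0.05, and with Oat 1 of the 2 called among 29 genes of the urea cycle and amino acid breakdown. The call of Oat was lost in every fit without 1 array, that of Slc1a2 in 5 of 6 and that of Sds in 3 of 6.

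Few lipid genes passed. Cyp51, the lanosterol demethylase of cholesterol synthesis, was at 10.95, 11.11 and 10.94 in APAP livers, against 11.74, 11.53 and 11.58 in corn oil livers (1.53-fold lower, adjusted p = 0.0488), and its call was lost whichever array was left out. It was the 1 called gene of 20 measured in the pathway, of which 16 changed downwards (median -0.29), with Idi1 at -0.73 (adjusted p = 0.29) and Pmvk at -0.36 (adjusted p = 0.17). Of 31 genes of fatty acid oxidation and PPARα targets 28 changed downwards and none passed (median -0.19), with Cpt1a at -0.44 (adjusted p = 0.44). Apoa1, the main protein of high density lipoprotein, was at 13.69, 13.08 and 13.59 in APAP livers, against 14.56, 14.30 and 14.61 in corn oil livers, without overlap (change -1.04, adjusted p = 0.0704). The other 15 measured hepatocyte markers changed by -0.24 to 0.12.

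**Figure D3:**
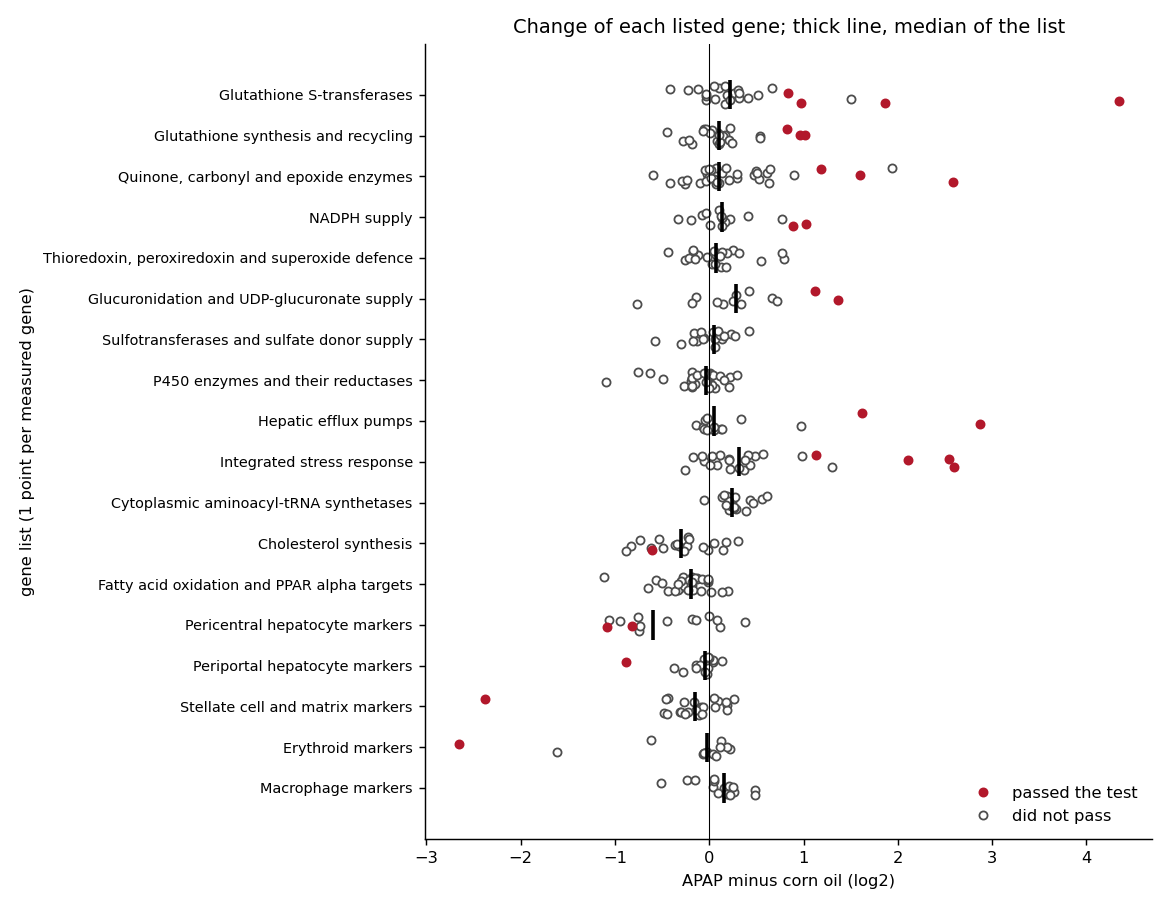
Change of every measured gene (points; horizontal axis, APAP minus corn oil, log2) in 18 gene lists; filled points passed the test and thick lines are list medians. The filled points at the far right are Gsta3 (4.35) and Abcc3 (2.87), those at the far left Hbb (-2.66) and Lox (-2.38), and the pericentral list has the lowest median, -0.60.

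Lists of injury and inflammation held no called gene. With 0.239% of all genes called higher and 0.0844% lower, most lists of their size would hold none. None of 17 p53 targets passed, with Cdkn1a, which arrests the cell cycle, at a change of -0.82 (adjusted p = 0.32) and Mdm2 at 0.45 (adjusted p = 0.27). None of 22 interferon response genes passed, nor any of 16 macrophage, 11 neutrophil, 18 lymphocyte or 16 bile duct markers. The summed linear level of the macrophage markers was 28800 to 47000 in APAP livers, against 26700 to 41400 in corn oil livers, and that of the neutrophil markers 3850 to 4450, against 3480 to 4240 in corn oil livers. In all, 31 of the 48 lists had no called member.

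The rises were next set against the rest of the series. Of the 34 genes that rose, 29 were higher in all 3 APAP rats than in every one of the 11 vehicle rats, which was true of 1.83% of all genes, and 18 were higher than in all 20 rats without APAP (0.647% of all genes). Those 18 included Akr7a3, Nqo1, Gclc, Gclm, Gsr, Ugdh, Pir, Gstp1 and Abcc4. Gsta3 and Abcc3 were not among them, with ANIT rats at up to 12.11 and 12.72. Of the 12 genes that fell, Cyp51, Cav2, Lox and Hbb were lower than in all 20 (0.317% of all genes). Membership was set by the same APAP arrays, so that these counts describe the called genes and are no test.

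DCLF, a drug of the same study with the same lack of lesions, called no gene on its own against water (0 of 14217 by limma, with 1684 at an unadjusted p under 0.05). The difference between the effects, APAP minus DCLF, was tested over the 11 arrays of the study and passed for 22 probe sets, all higher (0.0709% of all tested). Of the 34 genes that rose, 16 were among them, and of the 12 that fell none was. Gsta3 had a change of 4.35 with APAP and of -0.42 with DCLF, a difference of 4.77 ± 0.426 (SE, adjusted p = 0.00133). Abcc3 differed by 2.75 (adjusted p = 0.000436), Akr7a3 by 2.34 (adjusted p = 0.00133), Nqo1 by 1.74 (adjusted p = 0.00133) and Phgdh by 2.89 (adjusted p = 0.00333). For Asns the difference of 2.97 missed the threshold (adjusted p = 0.0709), with water rats spread from 7.89 to 9.48. The called genes had been picked on APAP and corn oil arrays that also enter these differences, and the vehicles differ between the drugs.

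**Figure D4:**
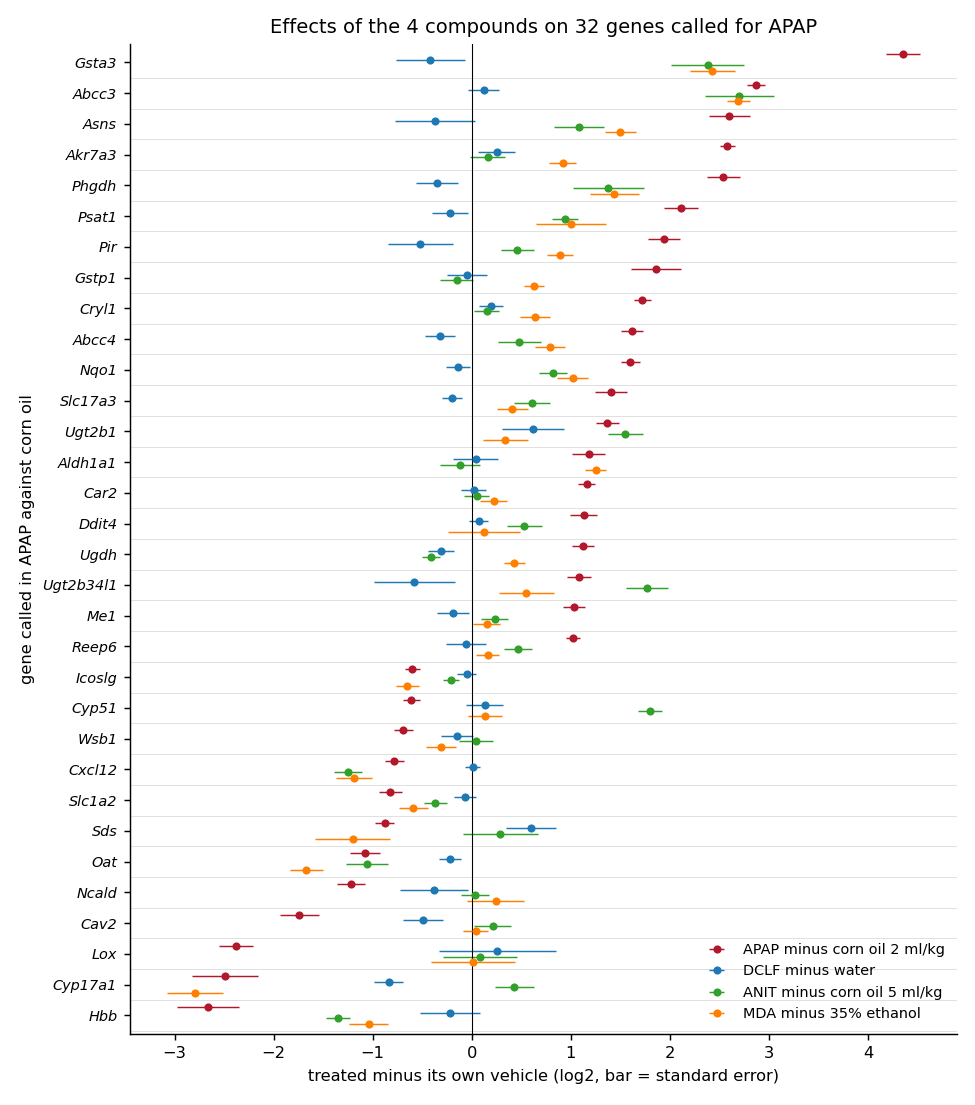
Effect of each compound against its own vehicle (horizontal axis, log2; bars, standard error) on the 20 largest rises and the 12 falls of the APAP comparison; red is APAP, blue DCLF, green ANIT and orange MDA. Gsta3 is at 4.35 for APAP and -0.42 for DCLF, while for Abcc3 APAP (2.87), ANIT (2.70) and MDA (2.69) lie together.

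Against ANIT, which injured bile ducts in a separate study with a larger volume of corn oil, 1262 probe sets differed (4.07% of all tested), and study and compound cannot be told apart. Of the genes that rose with APAP, 9 of 34 were also called higher with ANIT (3.84% of all genes) and 13 with MDA (4.90% of all genes). Of the 12 that fell with APAP, 3 were also called lower with ANIT (3.38% of all genes) and 6 with MDA (4.23% of all genes). MDA too was given in another study, so that study and compound cannot be told apart there either. For Abcc3 the changes were 2.87 with APAP, 2.70 with ANIT and 2.69 with MDA, and APAP minus ANIT was 0.17 ± 0.401 (SE, adjusted p = 0.871). Gsta3 changed by 2.38 with ANIT, 1.97 less than with APAP (adjusted p = 0.0273). Its levels were close in the treated livers, 12.01 to 12.32 with APAP and 11.94 to 12.11 with ANIT. The corn oil livers lay apart, at 7.45 to 8.07 in the APAP study and 8.67 to 10.29 in the ANIT study.

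The glutathione synthesis genes had changes of opposite sign with APAP and ANIT. Gclc changed by 0.96 with APAP and by -0.72 with ANIT (difference 1.68 ± 0.162 (SE), adjusted p = 0.000143), and Gclm by 1.02 with APAP and by -0.57 with ANIT (difference 1.59 ± 0.148 (SE), adjusted p = 0.00012). Ugdh changed by 1.12 with APAP and by -0.41 with ANIT (difference 1.53, adjusted p = 0.000129). Akr7a3 changed by 2.58 with APAP and by 0.16 with ANIT (difference 2.42, adjusted p = 7.24e-05). In all, 18 of the 34 rises were larger with APAP by this test and none was smaller. The 34 were picked on APAP and corn oil arrays that also enter this test, so this direction was favoured beforehand. Over all 31042 probe sets the difference was called higher for 564 and lower for 698. Among the falls, Cyp51 changed by -0.61 with APAP and by 1.80 with ANIT (difference -2.41, adjusted p = 5.59e-06). Lox, Cav2, Cyp17a1 and Ncald also differed from ANIT, each lower with APAP. Hbb fell with both, by 2.66 with APAP and by 1.35 with ANIT (difference -1.31, adjusted p = 0.0672), and with MDA by 1.04.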

How the data were processed

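Liver RNA (RIN of at least 9) was hybridised to Affymetrix rat arrays, 1 rat per array. The authors deposited log2 expression values, made by RMA in Array Studio (background correction, quantile normalization and summary of probes into probe sets). These values were used as deposited. Quantile normalization forces a common distribution on the probes of arrays normalized together, before the summary into probe sets. Whether all 23 arrays were normalized together was not given. Of 31099 probe sets 57 Affymetrix controls were left out, 20826 carried 1 gene name, 436 several and 9780 none. Names were updated through RefSeq gene IDs (20758 matched), and each of 14217 genes was represented by its probe set of highest mean over the 23 arrays. Depth has no counterpart on arrays, so precision follows from the number of arrays.

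The main test was limma 3.58.1 in R 4.3.3 on the 6 arrays, 2 groups and no covariate; interactions with DCLF (11 arrays) and ANIT (12 arrays) were fitted in the same way, and the fitting script was tested on simulated data. Summed levels of a list are sums of linear values over its genes. Genes were named by rule: the 20 largest rises and 15 largest falls called, every called list member, and the first 5 measured members of a list. The members and lists were chosen with earlier results of these data known. Replicates are separate rats, numbered here in order of accession, and those numbers pair nothing. Alternatives were another variance model, 2 further normalizations, a filter on dim probe sets, other sets of arrays, the methods' t-test, other probe set summaries and each array left out.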

Additional observations from a re-analysis of the deposited data

Results flagged for a closer look

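Results are listed here where the effect of APAP against corn oil differed, by the test of the difference itself, from the effect of another compound against its own vehicle. APAP exceeded DCLF, on the log2 scale, in the conjugation, antioxidant and export genes Gsta3 (4.77), Abcc3 (2.75), Akr7a3 (2.34), Abcc4 (1.95), Nqo1 (1.74), Slc17a3 (1.62), Ugdh (1.42), Mgst2 (1.20) and Gclc (1.09), in the serine synthesis genes Phgdh (2.89) and Psat1 (2.33), and in Cryl1 (1.53), Car2 (1.13), Slc35e3 (0.95), Atp5if1 (1.06) and Entpd5 (0.82). APAP exceeded ANIT in Gsta3 (1.97), Akr7a3 (2.42), Pir (1.48), Gstp1 (2.0), Cryl1 (1.57), Abcc4 (1.15), Nqo1 (0.77), Aldh1a1 (1.30), Car2 (1.11), Ugdh (1.53), Me1 (0.80), Gclm (1.59), Gclc (1.68), Creg1 (1.09) and Ptpdc1 (1.0), and in the amino acid genes Asns (1.52), Psat1 (1.17) and Slc6a9 (0.78). APAP was below ANIT in Cyp51 (-2.41), Ncald (-1.26), Cav2 (-1.95), Lox (-2.46) and Cyp17a1 (-2.92). The APAP and corn oil arrays behind these differences are those that called the genes, and the difference from ANIT cannot be told apart from the difference between the studies. Each value is a difference of effects, so it also depends on the vehicle levels. For Gsta3 and Me1 the corn oil livers of the ANIT study (8.67 to 10.29 and 11.48 to 11.93) lay above those of the APAP study (7.45 to 8.07 and 10.81 to 11.16). The same held for Pir (10.35 to 11.07, against 9.24 to 9.89) and Gstp1 (11.43 to 11.60, against 10.79 to 11.14). It also held for Ugdh (12.74 to 12.91, against 12.34 to 12.49) and Gclm (11.91 to 12.12, against 11.63 to 11.88). For Aldh1a1, Car2 and Akr7a3 those corn oil livers lay above by a narrower gap. For Akr7a3 the treated livers lay apart, at 14.30 to 14.47 with APAP and 11.87 to 12.54 with ANIT. No group of these comparisons had the 4 samples needed to look for a rat far from the others.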

How the results depend on the processing

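No call of the 46 genes turned in direction under any of 17 alternatives. By the methods' t-test after adjustment, however, 45 of them lost the call, among them Gsta3 (adjusted p = 0.163) and Abcc3 (adjusted p = 0.0765). The 65 probe sets called became 125 with all 23 arrays in the fit (54 shared), 123 with the 11 arrays of the study (61 shared), 146 with corn oil and water rats as controls (58 shared), 117 by the methods' t-test unadjusted at p under 0.01 (65 shared) and 1 by that t-test after Benjamini-Hochberg adjustment. The 46 genes became 78, 78, 94, 76 and 1 in the same settings. The 22 probe sets that differed from DCLF became 35 without the dimmest 25% of probe sets and 58 with all 23 arrays. Leaving out each array in turn gave 24 to 81 probe sets, 20 to 58 genes, 8 to 27 probe sets for the difference from DCLF and 939 to 1345 for that from ANIT. The lowest gene counts came without corn oil rat 2 (20), APAP rat 1 (22), corn oil rat 1 (25) and APAP rat 2 (25), and the lowest counts for DCLF without water rat 2 (8), APAP rat 1 (9), corn oil rat 2 (12) and DCLF rat 3 (13); the cause was not tested beyond the smaller number of rats. The 17 genes called in every such fit were Gsta3, Abcc3, Asns, Akr7a3, Phgdh, Psat1, Pir, Cryl1, Abcc4, Nqo1, Ugt2b1, Car2, Reep6, Slc35e3, Atp5if1, Entpd5 and Lox; the other 29 lost the call at least once. Of 219 listed genes named but not called, 12 were called under at least 1 alternative. Quantile normalization and median centring moved the median change of all genes to 0.011 and 0.0037. No paired analysis was possible because the replicate numbers only follow accession order and the rats of the groups are different animals. With 3 rats a group, an exact permutation test of a single gene cannot give a p under 0.1.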
